A study of Oryza sativa with 12 samples.

Results

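A set of 97 rice genes stood lower in an f3h line than in the wild type (WT) in leaf and in root at once. They were chosen from the measured values themselves. A gene entered where its mean over 3 libraries was at least 1 CPM (counts per 1000000 counts of the library) in every group, and where the ratio of f3h to WT, each with 0.5 CPM added, was at most 0.5 in leaf and at most 0.5 in root. The table held 37960 genes, and 16711 of them reached 1 CPM in all groups. Of these, 837 met the ratio in leaf (5.01%) and 692 in root (4.14%). The 97 genes that met it in both were 0.580% of the 16711, 11.6% of the leaf list and 14.0% of the root list. Because f3h against WT chose the genes, their levels in the 2 genotypes are given below as a description, with no test.

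RNA-seq counts came from 4 groups of 3 libraries: f3h leaf, WT leaf, f3h root and WT root. All were rice (Oryza sativa) seedlings aged 1 month and grown in nutrient solution. WT was the cultivar ZH11, as the titles name it. The labels call the f3h line a knockdown, while the series' design text calls the material CRISPR mutants, and neither names the locus that was targeted or the number of lines. No label states that the replicates were separate plants, so the p-values below reflect the scatter of the 3 libraries in a group, and that scatter may be technical.

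Flavanone 3-hydroxylase (F3H), after which the line is named, converts flavanones to dihydroflavonols, the entry to flavonols, anthocyanins and condensed tannins. Membership in the set required no pathway. The few genes of it that carry a checked name are known for different work: building cellulose, moving sodium, relaying calcium signals, and answering pathogens and toxic compounds. A transcript that is lower in whole leaf or root tissue can mean less RNA per cell or fewer of the cells that make it, and these cannot be told apart in such libraries.

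The libraries held 31171931 to 37821918 counts in leaf and 23740780 to 29687320 in root. WT leaf replicate 1 stood apart: its log2 CPM correlated across genes with replicates 2 and 3 at r = 0.969 and 0.967, against 0.987 to 0.993 for every other pair of replicates in a group. Where a gene of the set with a checked name met or missed a limit only with this library, its ratio without it is also given. The leaf antenna gene CAB2R (Os01g0600900) averaged 5716 CPM in f3h leaf and 16679 CPM in WT leaf, with 24.3 CPM in f3h root and 1.57 CPM in WT root. The root silicon transporter gene LSI2 (Os03g0107300) averaged 1476 CPM in f3h root and 1433 CPM in WT root, and at most 0.0619 CPM in any leaf library. With 0.5 CPM added to each mean, the ratio of f3h to WT for CAB2R was 0.343 in leaf and 12.0 in root, and its part in the values below was not tested. None of the 4 loci listed as F3H genes was in the set, and 2 of them, Os04g0662600 and Os04g0667200, stayed under 1 CPM in every leaf library and so could not enter it. The best read of them in leaf, Os10g0536400, averaged 85.3 CPM in f3h leaf and 53.7 CPM in WT leaf, with 33.4 CPM in f3h root and 35.3 CPM in WT root.

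Of the 97 genes, 7 carried a name that could be checked against the reference, and 90 are known here by locus alone. Apart from WRKY76, these names were paired with loci after the set was known, so they say nothing of which functions are common in it. The named genes were CESA6, HKT1;5, CIPK31, CIPK16, WRKY76, CHT5 and GSTU6.

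CESA6 (Os07g0252400) encodes a catalytic subunit of cellulose synthase, the plasma membrane complex that spins cellulose of the cell wall. Its level was 6.64, 6.53 and 8.30 CPM in the f3h leaf libraries, against 17.3, 17.2 and 16.5 CPM in the WT leaf libraries. In root it was 94.5, 92.5 and 82.5 CPM in f3h, against 190, 186 and 198 CPM in WT. The gene was far higher in root than in leaf in both genotypes, and the f3h to WT ratio was 0.438 in leaf and 0.471 in root. It stayed between 0.405 and 0.490 in either organ when any 1 library was left out.

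HKT1;5 (Os01g0307500) encodes a sodium transporter that unloads sodium from the xylem and so keeps it from the shoot. In root the f3h libraries had 25.2, 22.0 and 25.7 CPM, against 59.8, 56.8 and 56.1 CPM in WT. In leaf the f3h libraries had 4.32, 3.71 and 4.55 CPM, against 12.5, 7.995 and 8.60 CPM in WT. The root ratio was 0.427 and the leaf ratio 0.461. WT leaf replicate 1 was the highest of its group, and without it the leaf ratio was 0.534, past the limit of 0.5.

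CIPK31 and CIPK16 encode CBL-interacting protein kinases, which carry signals from calcium-binding sensor proteins. CIPK31 (Os03g0319400) stood at 34.4, 36.2 and 37.1 CPM in f3h leaf, against 188, 137 and 133 CPM in WT leaf. Its root libraries had 7.52, 9.17 and 6.66 CPM in f3h, against 16.7, 17.6 and 18.2 CPM in WT. Its ratio was lower in leaf (0.237) than in root (0.461), and without WT leaf replicate 1 the leaf ratio was 0.268. CIPK16 (Os09g0418000) had 1.20, 1.70 and 0.793 CPM in f3h leaf, against 10.1, 12.2 and 9.93 CPM in WT leaf. In root it had 3.53, 5.80 and 5.85 CPM in f3h, against 10.4, 12.5 and 13.5 CPM in WT. Its leaf ratio of 0.154 was the third lowest of the 97 genes, and its root ratio was 0.441. CIPK16 left the set in 2 of the 12 settings that omit 1 library, once with a root ratio of 0.502 and once with an f3h leaf mean below 1 CPM.

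WRKY76 (Os09g0417600) encodes a WRKY transcription factor known in rice as a repressor of defence genes. Its level was 21.1, 19.1 and 25.7 CPM in f3h leaf, against 79.0, 106 and 125 CPM in WT leaf. In root it was 2.05, 3.30 and 4.38 CPM in f3h, against 9.33, 10.03 and 9.90 CPM in WT. No f3h library reached the lowest WT library in either organ, and the ratio was 0.217 in leaf and 0.365 in root.

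CHT5 (Os04g0494100) encodes a chitinase, an enzyme that cuts the chitin of fungal walls. The f3h leaf libraries had 1.39, 1.05 and 0.740 CPM, against 6.96, 6.08 and 4.52 CPM in WT leaf. The f3h root libraries had 1.05, 1.18 and 2.02 CPM, against 19.3, 15.9 and 15.6 CPM in WT root. CHT5 thus stood near 1 CPM in f3h whichever the organ, and its ratio was 0.245 in leaf and 0.110 in root. Without WT leaf replicate 1 the leaf ratio was 0.269. The gene left the set in 1 of the 12 settings that omit 1 library.

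GSTU6 (Os10g0529300) encodes a glutathione S-transferase of the tau class, enzymes that conjugate glutathione to toxic compounds. It had 6.06, 4.83 and 5.05 CPM in f3h leaf, against 16.6, 26.6 and 23.6 CPM in WT leaf. In root it had 0.930, 1.504 and 1.095 CPM in f3h, against 7.44, 5.42 and 4.88 CPM in WT. Its ratio was close to alike in both organs, 0.256 in leaf and 0.261 in root. Without WT leaf replicate 1 the leaf ratio was 0.227. Tau-class genes lie in arrays of similar copies, and reads shared between copies make its own level uncertain.

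**Figure D1:**
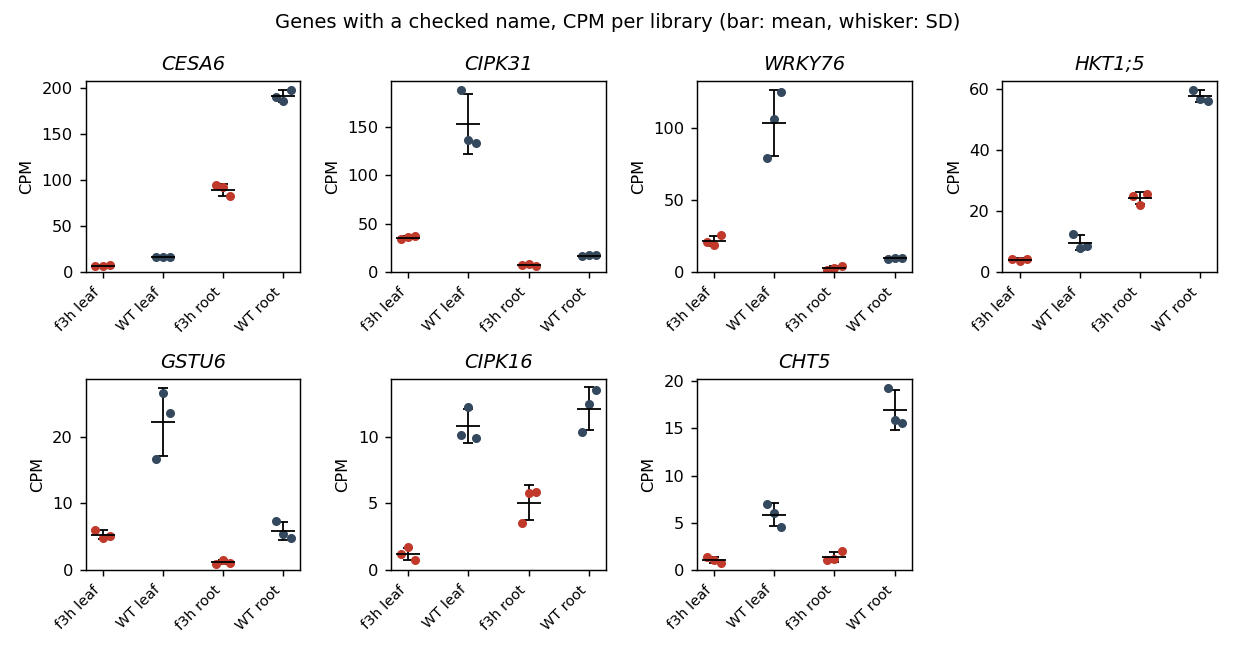
CPM of the 7 genes with a checked name in each of the 12 libraries (points, red for f3h and dark blue for WT), with the group mean as a bar and the SD as a whisker (n = 3 libraries per group). Within each organ the f3h points lie below the WT points for all 7 genes, and the organ with the higher level differs from gene to gene, as for CESA6 (191 CPM in WT root, 17.0 CPM in WT leaf) and CIPK31 (17.5 CPM in WT root, 153 CPM in WT leaf).

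Across the set, the leaf ratio of f3h to WT ran from 0.0288 to 0.498 with a median of 0.402, and the root ratio from 0.0352 to 0.4996 with a median of 0.365. The medians over the 16711 genes were 0.977 in leaf and 1.05 in root. In all 97 genes every f3h library lay below every WT library in leaf and in root. The same separation was seen in 27.6% of the 16711 genes in leaf, 25.4% in root and 8.08% in both, and as the rule picked genes with low ratios, the count of 97 is a description only. The ratio was the lower of the pair in root for 59 genes and in leaf for 38.

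Most genes lay close to the limit in at least 1 organ: 74 of the 97 had a ratio above 0.4 in leaf, in root or in both, and 13 had it in both. Ratios of at most 0.25 were reached by 17 genes in leaf and 22 in root, but by 3 in both, namely Os03g0608700, Os07g0221300 and CHT5. Without WT leaf replicate 1 the last count was 2, as CHT5 dropped out.

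**Figure D2:**
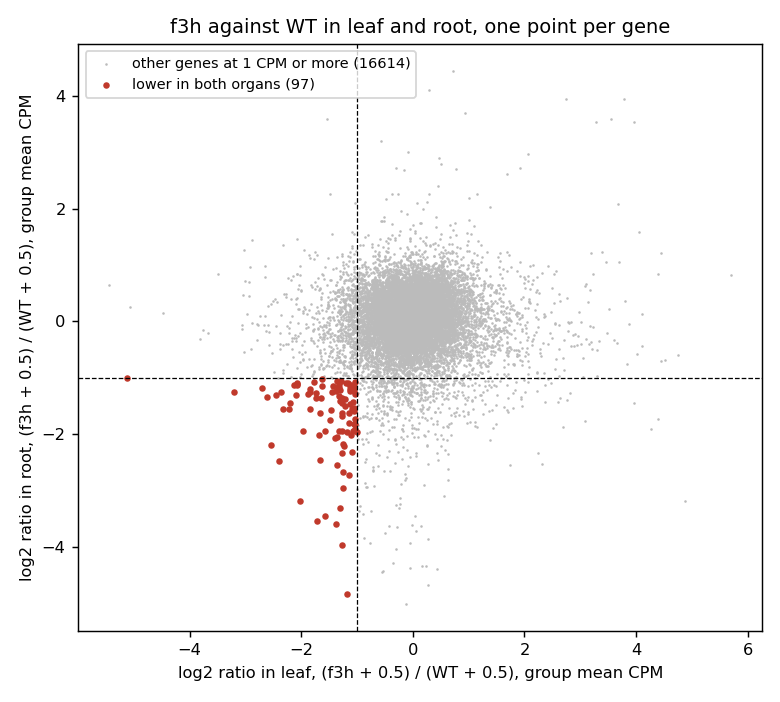
Log2 ratio of f3h to WT in leaf (horizontal) and in root (vertical) from group mean CPM with 0.5 added, for 16711 genes. Red points are the 97 genes at or below -1 on both axes (dashed lines), most of them near one of the limits, while the grey cloud of the other 16614 genes is centred near 0.

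Among the genes lowest in both organs, Os03g0608700 had 8.68, 11.1 and 8.83 CPM in f3h leaf, against 53.4, 52.5 and 51.4 CPM in WT leaf. In root it had 9.34, 9.35 and 8.63 CPM in f3h, against 48.6, 53.4 and 56.2 CPM in WT. The ratio was 0.189 in leaf and 0.180 in root, with 0.175 to 0.198 in leaf and 0.174 to 0.187 in root when any 1 library was left out. On the TMM scale described below, root minus leaf was log2 -0.72 ± 0.16 in f3h (SE, edgeR adjusted p = 0.000593) and -0.56 ± 0.10 in WT (edgeR adjusted p = 0.000707), short of the fold limit in both. Os07g0221300, at lower levels, averaged 1.67 ± 0.586 CPM in f3h leaf and 12.0 ± 2.89 CPM in WT leaf, with 3.55 ± 0.316 CPM in f3h root and 17.9 ± 1.53 CPM in WT root (SD, n = 3 each).

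Ratios of at most 0.1 were found in 1 gene in leaf and in 5 in root. The leaf gene was Os07g0691300, with 3.24, 3.68 and 2.93 CPM in f3h leaf, against 225, 81.0 and 85.6 CPM in WT leaf. In root it had 16.5, 15.9 and 18.5 CPM in f3h, against 37.2, 34.8 and 31.4 CPM in WT. It joins the lowest leaf ratio of the set, 0.0288, to the highest root ratio, 0.4996. Without WT leaf replicate 1, the highest library, the leaf ratio was 0.0452, and the gene left the set in 4 of the 12 settings that omit 1 library, as its root ratio lies at the limit.

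The 5 genes with a root ratio of at most 0.1 were Os02g0134200, Os02g0584700, Os05g0545400, Os02g0584800 and Os01g0699600. They were picked out after their values were seen. Os02g0134200 had the lowest, 0.0352, with 4.73, 4.73 and 4.93 CPM in f3h root, against 149, 159 and 142 CPM in WT root. In leaf it had 2.47, 2.69 and 2.19 CPM in f3h, against 7.92, 5.57 and 5.06 CPM in WT. Its leaf ratio was 0.442, and 0.508 without WT leaf replicate 1. The other 4 root ratios were 0.0641 for Os02g0584700, 0.0829 for Os05g0545400, 0.0862 for Os02g0584800 and 0.0918 for Os01g0699600, and each of these genes averaged 2.66 to 7.24 CPM in f3h root and 37.6 to 120 CPM in WT root. In f3h, the root levels of all 5 genes were of the same order as their leaf levels, which ran from 1.55 to 4.57 CPM.

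The highest levels belonged to loci without a checked name. Os04g0269600 averaged 396 ± 4.21 CPM in f3h leaf and 813 ± 98.5 CPM in WT leaf, with 46.4 ± 1.77 CPM in f3h root and 165 ± 4.56 CPM in WT root (SD, n = 3 each). Its leaf ratio was 0.488, and 0.524 without WT leaf replicate 1. Os04g0518100 averaged 17.6 ± 1.31 CPM in f3h leaf and 42.9 ± 7.15 CPM in WT leaf, with 159 ± 3.58 CPM in f3h root and 407 ± 10.5 CPM in WT root (SD, n = 3 each), the highest root level of the set.

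Os01g0559750 had 104, 92.2 and 91.8 CPM in f3h leaf, against 488, 191 and 178 CPM in WT leaf. In root it had 74.5, 92.8 and 106 CPM in f3h, against 389, 321 and 347 CPM in WT. WT leaf replicate 1 was more than 2 times either of its partners, and without it the leaf ratio was 0.522 in place of 0.337. The root ratio was 0.260. Os08g0478700 averaged 88.0 CPM in f3h leaf and 210 CPM in WT leaf, then 9.75 CPM in f3h root and 45.7 CPM in WT root. Its ratio was 0.420 in leaf and 0.222 in root.

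The median of the gene means was 4.58 CPM in f3h leaf and 16.1 CPM in WT leaf, with 8.87 CPM in f3h root and 34.5 CPM in WT root. Over the 16711 genes the medians were 18.5 CPM in f3h leaf, 18.8 CPM in WT leaf, 24.5 CPM in f3h root and 23.8 CPM in WT root. Below 5 CPM stood 50 genes of the set in f3h leaf, 15 in WT leaf, 31 in f3h root and 6 in WT root. The smallest count of any of the 97 genes in any library was 12 reads, in f3h root.

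Summed over the 97 genes, the f3h leaf libraries held 1714 to 1725 CPM and the WT leaf libraries 4327 to 5301 CPM, the top value being replicate 1. The f3h root libraries held 1753 to 1798 CPM and the WT root libraries 5535 to 5795 CPM. That the sums separate by genotype follows from the rule. The spread between replicates was larger in the set than over the 16711 genes in f3h leaf, f3h root and WT leaf, and smaller in WT root. The median f3h levels of the set lay below those of the 16711 genes, as given above. The part of level in this spread was not tested. The median coefficient of variation of the set was 13.9% in f3h leaf and 17.2% in WT leaf, and 10.9% in f3h root and 6.78% in WT root. Over the 16711 genes it was 7.20% in f3h leaf, 14.6% in WT leaf, 7.67% in f3h root and 7.63% in WT root. WT leaf replicate 1 was the highest of its group for 50 of the 97 genes and the lowest for 38, so its offset went both ways.

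**Figure D3:**
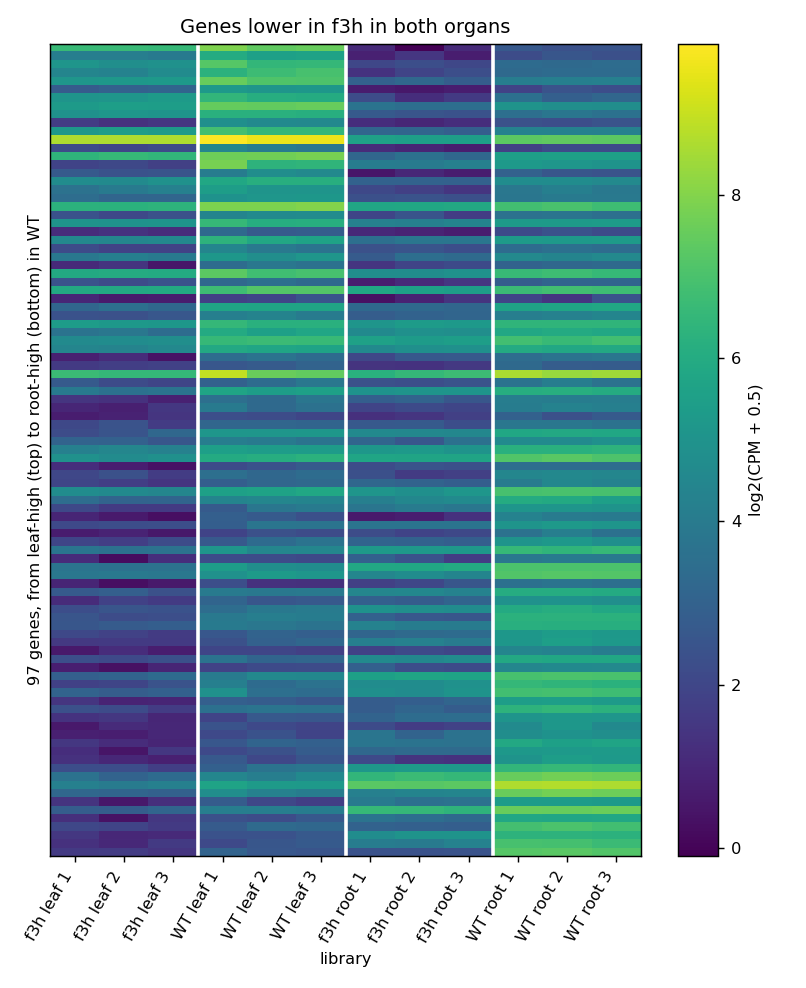
Level of each of the 97 genes (rows) in the 12 libraries (columns) as log2(CPM + 0.5), ordered from genes higher in WT leaf (top) to genes higher in WT root (bottom). In each organ the 3 f3h columns are darker than the 3 WT columns beside them. The upper rows are brightest in WT leaf and the lower rows in WT root.

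How the limit of 0.5 cut the data can be seen from the genes beside it. Just inside lay Os07g0691300 (0.4996 in root) and Os02g0314600 (0.498 in leaf and 0.258 in root). Just outside lay Os01g0194000, with a leaf ratio of 0.5001 and a root ratio of 0.498, and Os09g0484800, with a leaf ratio of 0.405 and a root ratio of 0.501. Within 0.05 of the limit there were 38 genes inside and 58 outside. Leaving out each library in turn gave 91 to 107 genes, of which 83 to 97 belonged to the original 97. The fewest were kept without WT leaf replicate 1, where 14 genes left the set because their leaf ratio passed 0.5, among them HKT1;5, Os04g0269600, Os01g0559750 and Os02g0134200. Leaving it out moved the leaf ratio by more than 1.5 times in 3 genes, Os07g0691300, Os01g0559750 and Os03g0107700, the last with 0.704 in place of 0.441. In all 12 settings 65 of the 97 genes stayed in.

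**Figure D4:**
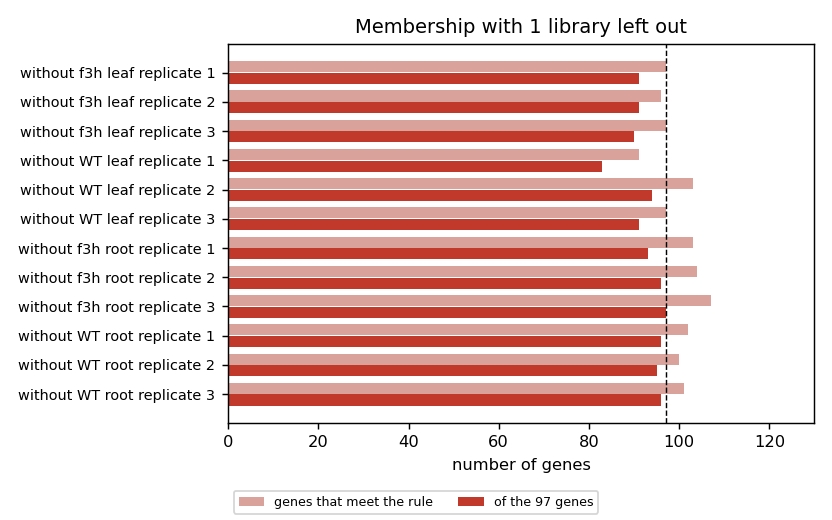
Number of genes that met the rule with 1 library omitted (light bars) and number of the 97 genes among them (dark bars), with a dashed line at 97. The shortest bars are those without WT leaf replicate 1, with 91 genes and 83 of the 97.

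The difference between root and leaf within a genotype was not part of the rule, and it was tested with edgeR on the 6 libraries of each genotype over all genes that passed a filter on low counts (24822 genes in f3h and 25229 in WT). All 97 genes passed that filter. A gene was called at an adjusted p below 0.05 and a log2 fold change of at least 1 in size. In f3h, 31 of the 97 genes (32.0%) were called higher in root and 26 (26.8%) lower, and 40 were not called. In WT, 40 (41.2%) were called higher in root and 27 (27.8%) lower, and 30 were not called.

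Of the 16711 genes from which the set was drawn, 16.0% were called higher in root and 22.7% lower in f3h, and 16.8% higher and 22.2% lower in WT. Of all genes tested, which include genes read in 1 organ alone, 28.8% were higher and 24.0% lower in f3h, and 29.9% higher and 22.9% lower in WT. The share of the set called higher in root was thus above that of the 16711 genes in both genotypes, and the share called lower was within 6 percentage points of theirs. The median log2 difference of root from leaf was 0.26 for the set and -0.10 for the 16711 genes in f3h, and 0.29 and -0.11 in WT. These are counts and medians with no test of the list.

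The scaling of root against leaf libraries set part of this split. Relative to library totals, TMM normalization shifted the log2 root over leaf of the 97 genes by a median of -0.66 in f3h and -0.57 in WT. With library totals alone, 47 were called higher in root and 18 lower in f3h, and 48 higher and 20 lower in WT. The 16711 genes moved as well, to 32.8% higher and 14.0% lower in f3h and 29.9% higher and 14.1% lower in WT. All log2 differences of root from leaf given here are from the TMM fit and stand on that scale, while CPM values are by library total.

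The call was the same in both genotypes for 70 of the 97 genes (72.2%), against 78.8% of the 16711. Higher in root in both were 25 genes (25.8%, against 11.2%), lower in root in both 23 (23.7%, against 16.9%), and called in neither 22 (22.7%, against 50.8%). Another 5 genes were called higher in f3h alone (5.15%, against 4.76% of the 16711) and 15 higher in WT alone (15.5%, against 5.27%). Lower in f3h alone were 3 genes (3.09%, against 5.37%) and lower in WT alone 3 (3.09%, against 5.20%). The difference between the genotypes was not tested for these, since it is made of the same ratios that chose the genes. Only Os07g0691300 was called in opposite directions, higher in root in f3h (log2 1.71 ± 0.17, SE, edgeR adjusted p = 1.43e-07) and lower in root in WT (log2 -2.48 ± 0.37, edgeR adjusted p = 0.000251). Of the 16711 genes, 0.132% had that pair of calls.

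CESA6 was among the genes with the largest root excess: root exceeded leaf by log2 2.99 ± 0.10 in f3h (SE, edgeR adjusted p = 2.99e-13) and by 2.93 ± 0.09 in WT (edgeR adjusted p = 1.04e-08). HKT1;5 was higher in root by log2 1.87 ± 0.14 in f3h (edgeR adjusted p = 7.05e-09) and by 2.01 ± 0.17 in WT (edgeR adjusted p = 5.79e-06). Whether these differences changed between the genotypes was not tested.

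CIPK31, WRKY76 and GSTU6 were lower in root. For CIPK31 the log2 difference was -2.86 ± 0.12 in f3h (SE, edgeR adjusted p = 3.28e-12) and -3.69 ± 0.15 in WT (edgeR adjusted p = 5.26e-08). For WRKY76 it was -3.43 ± 0.20 in f3h (edgeR adjusted p = 3.61e-10) and -3.97 ± 0.18 in WT (edgeR adjusted p = 1.03e-07). For GSTU6 it was -2.83 ± 0.28 in f3h (edgeR adjusted p = 1.91e-07) and -2.48 ± 0.23 in WT (edgeR adjusted p = 1.09e-05).

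CIPK16 was called higher in root in f3h (log2 1.38 ± 0.34, SE, edgeR adjusted p = 0.00175) and was not called in WT (log2 -0.40 ± 0.17, edgeR adjusted p = 0.0579). CHT5 was called in neither genotype, with a log2 difference of -0.25 ± 0.44 in f3h (edgeR adjusted p = 0.615) and 0.97 ± 0.19 in WT (edgeR adjusted p = 0.00159), the WT value missing the fold limit by little. With library totals the f3h value of CHT5 turned to 0.41 and the WT value of CIPK16 to 0.17.

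The widest organ differences of the set belonged to loci without a name. Os10g0580400 had the largest leaf excess, with a log2 root minus leaf difference of -7.01 ± 0.18 in f3h (SE, edgeR adjusted p = 7.13e-15) and -5.83 ± 0.18 in WT (edgeR adjusted p = 1.07e-08). Its root libraries had 1.63, 0.430 and 1.60 CPM in f3h, against 5.91, 4.61 and 5.12 CPM in WT, and its leaf libraries 96.5, 101 and 95.1 CPM in f3h, against 246, 172 and 185 CPM in WT. Without WT leaf replicate 1 its leaf ratio of f3h to WT was 0.547. Os02g0134200 was not called in f3h (log2 0.31 ± 0.24, edgeR adjusted p = 0.262) and had the largest root excess of the set in WT, log2 4.04 ± 0.17 (edgeR adjusted p = 6.22e-08). In f3h the largest root excess was that of Os09g0442100, log2 3.38 ± 0.17 (edgeR adjusted p = 5.33e-11), with 3.40 ± 0.13 in WT (edgeR adjusted p = 2.98e-08). These 3 loci were picked out as the ends of the range.

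**Figure D5:**
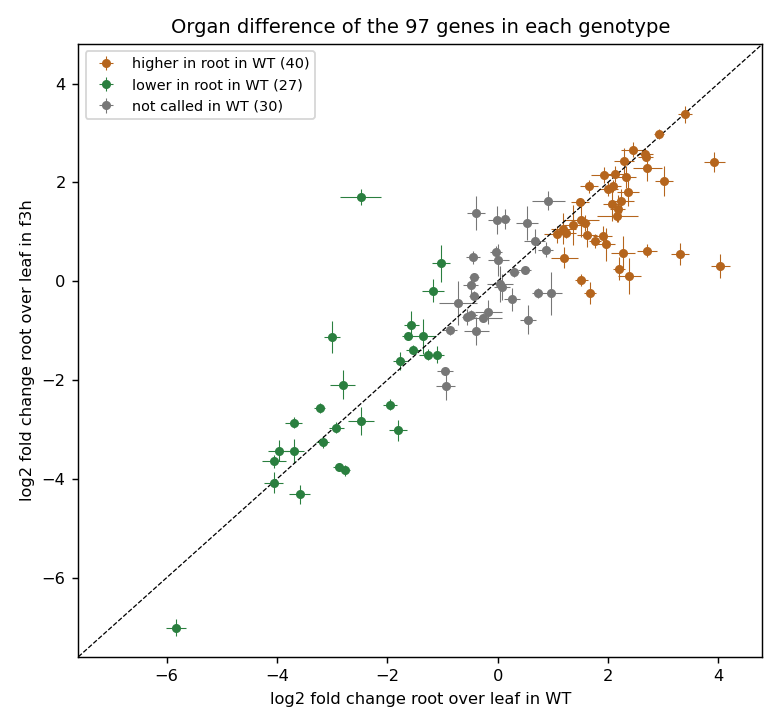
Log2 difference of root from leaf in f3h (vertical) against that in WT (horizontal) for the 97 genes, with SE bars from the edgeR fit, coloured by the call in WT. Points on the dashed line have the same difference in both genotypes. Several of the 40 genes higher in root in WT lie far below the line, and Os07g0691300 lies alone at the upper left (1.71 in f3h, -2.48 in WT).

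Grouped by the WT call, the ratios of f3h to WT were ordered with the organ of higher level. The 40 genes higher in WT root had a median of 41.5% of the WT level in f3h leaf and 27.3% in f3h root, and 34 of them had the lower ratio in root. The 27 genes lower in WT root had medians of 30.01% in leaf and 39.2% in root, and 8 had the lower ratio in root. The 30 uncalled genes had medians of 38.98% in leaf and 41.3% in root. A ratio of at most 0.25 was found in root in 16 and in leaf in 0 of the genes higher in WT root. Among the genes lower in WT root it was found in root in 2 and in leaf in 10, and among the uncalled genes in root in 4 and in leaf in 7. The lowest mean of 1 CPM and the added 0.5 CPM also kept genes with a low WT level from low ratios. The median WT level of the 40 genes was 7.63 CPM in leaf and 60.2 CPM in root, and of the 27 genes 66.1 CPM in leaf and 12.1 CPM in root. The rule thus fixed part of this ordering. The WT libraries also enter both the call and the ratio, so the ordering is a description and carries no test.

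The set was compared with 15 gene lists for pathways of leaf and root. From 13 of these lists no gene was in the set, including phenylpropanoid and lignin synthesis, where 0 of 13 genes at 1 CPM or more belonged to it. In that list 7 of the 13 genes had a root ratio of at most 0.5, against 4.14% of the 16711, but 0 had a leaf ratio that low, against 5.01%. The median log2 ratio of the 13 genes was -1.07 in root and 0.55 in leaf. The list left out Os04g0518100, the member with the highest root level, which a pair written after the set was known places among the phenylalanine ammonia-lyase genes that open this pathway. That pair failed the check of names, as did those of the ammonia-lyase genes the list holds, and with this locus the count would be 1 of 14. Flavonoid synthesis gave 0 of 4 genes, iron uptake 0 of 13, jasmonate 0 of 13 and antioxidant enzymes 0 of 8. Water deficit and abscisic acid gave 0 of 12, the circadian clock and flowering 0 of 10, other hormones 0 of 9, phosphate starvation 0 of 6, and sugar transport and breakdown 0 of 4. Phytoalexin synthesis, low oxygen and heat shock each gave 0 of 2. Of the 16711 genes 0.580% were in the set, so for lists this short a count of 0 lies near that share. The counts of 0 therefore do not set these pathways apart from other genes in membership. They say nothing of their levels in leaf alone or in root alone.

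The list of defence, WRKY and chitin response genes gave 3 of 14 (21.4%), against 0.580% of the 16711 genes. These were WRKY76 and 2 loci without a checked name, and the list was written with earlier results known. Os05g0322900 averaged 77.9 ± 2.62 CPM in f3h leaf and 243 ± 9.74 CPM in WT leaf, with 56.9 ± 2.19 CPM in f3h root and 116 ± 9.47 CPM in WT root (SD, n = 3 each). Its ratio was 0.322 in leaf and 0.492 in root, the root ratio ran up to 0.515 with 1 library omitted, and the gene left the set in 2 of the 12 such settings. Os06g0649000 averaged 4.72 ± 0.493 CPM in f3h leaf and 13.5 ± 2.74 CPM in WT leaf, with 28.3 ± 2.11 CPM in f3h root and 62.8 ± 4.93 CPM in WT root (SD, n = 3 each). In the same list 5 of the 14 genes had a ratio of at most 0.5 in leaf and 6 in root, against 5.01% and 4.14% of the 16711 genes. The median log2 ratio of its 14 genes was -0.39 in leaf and -0.57 in root, against -0.03 and 0.07 for the 16711 genes. Both the counts and the medians include the 3 members, which the rule chose for low ratios. They are therefore a description only and say nothing of the list apart from these members.

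Of the 11 other genes of that list, 2 had a ratio of at most 0.5 in leaf alone, 3 in root alone and 6 in neither. In 5 of the 11 the ratio was above 1.5 in an organ, among them CHT1 (2.04 in leaf) and NPR1 (1.84 in root). PBZ1 (Os12g0555500), a pathogenesis-related protein gene, averaged 44.5 CPM in f3h leaf and 147 CPM in WT leaf, but 34.1 CPM in f3h root and 14.8 CPM in WT root. WRKY71 (Os02g0181300) averaged 89.7 CPM in f3h leaf and 102 CPM in WT leaf, with 47.0 CPM in f3h root and 176 CPM in WT root. The chitin receptor genes CEBIP and CERK1 were in neither the leaf nor the root list, with ratios of 0.971 and 0.796 in leaf and 1.51 and 1.02 in root.

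The list of nitrogen uptake and assimilation gave 1 of 7 genes, against 0.580% of the 16711 genes. This 1 gene was the locus Os10g0554200. It had 2.64, 2.01 and 2.25 CPM in f3h leaf, against 28.2, 24.4 and 22.9 CPM in WT leaf, the second lowest leaf ratio of the set (0.109). In root it had 1.78, 1.43 and 1.77 CPM in f3h, against 4.67, 4.32 and 4.99 CPM in WT, a ratio of 0.419. The ammonium transporter gene AMT1;1 (Os04g0509600) lay just outside the set, with ratios of 0.472 in leaf and 0.544 in root.

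By the chromosome number in the locus identifier, the set touched all 12 chromosomes, with 21 genes on chromosome 1 and 3 on chromosome 11 and on chromosome 12. Relative to the genes at 1 CPM or more, the share was highest on chromosome 9 (0.903%) and chromosome 1 (0.884%) and lowest on chromosome 12 (0.326%). Within 5 counted loci of another member lay 7 of the 97 genes (7.22%), and 2.61% of the 16711 genes lay that close to a member. Within 10 loci these shares were 11.3% and 5.04%.

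The 7 close genes formed 3 runs. Os02g0584700 and Os02g0584800 on chromosome 2 are adjacent and both belong to the 5 genes lowest in root. Os02g0584700 had 7.67, 7.27 and 6.78 CPM in f3h root, against 117, 129 and 115 CPM in WT root, and Os02g0584800 had 7.44, 5.52 and 5.43 CPM in f3h root, against 75.1, 78.4 and 75.7 CPM in WT root. Their leaf ratios were 0.414 and 0.304. In f3h neither was called for root against leaf (log2 0.55 ± 0.22 and -0.24 ± 0.22, SE, edgeR adjusted p = 0.0308 and 0.325), and in WT both were called higher in root (log2 3.30 ± 0.17 and 1.68 ± 0.11, edgeR adjusted p = 1.66e-07 and 1.04e-06). With library totals the f3h value of Os02g0584800 turned to 0.42.

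The run on chromosome 4 held Os04g0585700, Os04g0586000 and Os04g0586100, whose organ patterns differed. Os04g0585700 averaged 9.06 CPM in f3h leaf and 33.8 CPM in WT leaf, with 4.68 CPM in f3h root and 14.6 CPM in WT root. Os04g0586100 averaged 3.77 CPM in f3h leaf and 11.1 CPM in WT leaf, with 37.6 CPM in f3h root and 90.1 CPM in WT root. The gene between these, Os04g0586000, averaged 24.1 CPM in f3h leaf and 50.9 CPM in WT leaf, with 32.1 CPM in f3h root and 125 CPM in WT root. Os04g0585900, inside the run, was read at 20.6 CPM in f3h leaf and 50.9 CPM in WT leaf but under 1 CPM in root, and so could not enter the set. Whether neighbouring loci share reads through overlap or similar sequence was not checked here, so the level of each of them alone is uncertain.

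The third run joined WRKY76 and CIPK16 on chromosome 9, with WRKY62 (Os09g0417800), another WRKY factor gene, between them. WRKY62 averaged 21.2 CPM in f3h leaf and 117 CPM in WT leaf, a ratio of 0.184 beside 0.217 for WRKY76 and 0.154 for CIPK16. In root WRKY62 averaged 22.0 CPM in f3h and 17.1 CPM in WT, a ratio of 1.28, whereas WRKY76 and CIPK16 had 0.365 and 0.441. All 3 neighbours were thus low in f3h leaf, and the middle one was not low in f3h root.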

How the data were processed

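Total RNA of leaf and root was made into mRNA libraries, per the labels' protocols. The authors deposited whole-number read counts per gene, not normalized. The submitters' processing notes name the tools DESeq, featureCounts, HISAT2 and fastp. Versions, build, annotation and whether counting used strand were not given in the sources used here. All 12 columns matched the label of 1 sample.

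Counts were scaled to CPM by library total, and the genes were chosen by group means as described in the report. The rule leaves out Os01g0348900, which did not reach 1 CPM in every group. The genes and lists were chosen with earlier results of these data known. Root and leaf were compared within each genotype in R 4.3.3 by the quasi-likelihood test of edgeR 4.0.16 (filterByExpr, TMM, Benjamini-Hochberg adjustment over all genes tested). The SE of a log2 fold change was derived from the F statistic. The procedure was tested on simulated counts. In these the root libraries kept the WT leaf profile, apart from genes changed up and down alike. They could therefore not test the scaling of root against leaf. DESeq2 1.42.0 and limma 3.58.1 served as alternatives, with other scalings, filters and pseudocounts, each library left out in turn, and the replicate number as a block.

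The table gives loci without names. The RefSeq table used for names (assembly ASM3414082v1) matched 99 identifiers directly, 1 of them an Os locus. Other names came from 211 pairs of name and locus in the lists and 9 pairs written after the genes were known. A name was kept if its reference gene lay on the chromosome that the locus number gives and no more than 10% of that chromosome's length from the place the number implies, a coarse check that cannot tell close copies apart. Of these pairs, 140 and 6 passed. The genes named in the text are every member with a checked name, then the 5 with the highest level, the 5 lowest in both organs, 2 on each side of the limit and the members of any run of 3 or more. All other genes named, such as those of the lists, of shorter runs or at the ends of a range, were chosen after their values were seen. No promoter or protein sequences were used here, and the planned count of promoter motifs was not run.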

Additional observations from a re-analysis of the deposited data

Results flagged for a closer look

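In 3 of the 97 genes the order of the organs, by library totals, was opposite in the 2 genotypes in every library, and the difference between genotypes was not tested. The share of the 16711 genes with this pattern was not counted. The ratios that chose the genes enter the pattern, so the count of 3 is a description only. Os07g0691300 had a root to leaf ratio of mean CPM of 5.17 in f3h and 0.264 in WT. The ratio of Os05g0214300 was 2.03 in f3h and 0.726 in WT, with 2.17, 3.37 and 3.88 CPM in f3h root and 1.60, 2.14 and 0.899 CPM in f3h leaf, against 7.98, 8.90 and 9.26 CPM in WT root and 10.2, 13.7 and 12.2 CPM in WT leaf. On the TMM scale Os05g0214300 was not called in f3h (log2 0.36 ± 0.37, SE, edgeR adjusted p = 0.385). In WT it was called lower in root (log2 -1.03 ± 0.17, edgeR adjusted p = 0.000488). The ratio of Os08g0233600 was 1.38 in f3h and 0.656 in WT, and on the TMM scale its log2 difference was below 0 in both (-0.20 in f3h and -1.17 in WT). Groups of 3 libraries were not searched for single outlying values.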

How the results depend on the processing

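The number of genes was 97 by library totals, 103 with TMM and 106 with DESeq2 size factors (93 of the 97 kept in each). A pseudocount of 0.1 CPM gave 122 genes and one of 1 CPM gave 85. A lowest mean of 0.5 CPM gave 115 and one of 2 CPM gave 66. Under all settings, left-out libraries included, 47 of the 97 were kept. Leaving out 1 library gave 29 to 33 genes higher and 25 to 27 lower in root in f3h, and 38 to 41 higher and 26 to 29 lower in WT. With the replicate block the counts were 31 higher and 27 lower in f3h and 41 higher and 27 lower in WT. Replicate numbers were not found to pair the libraries: deviations of same-numbered root and leaf libraries correlated at -0.01, -0.01 and 0.00 in f3h and at 0.15, 0.10 and -0.05 in WT. Upper quartile scaling gave 38 higher and 22 lower in f3h and 43 higher and 24 lower in WT. Library total scaling, chosen after seeing the data, gave 47 higher in f3h, which follows from the shift of all genes given in the report.

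Among the named genes, 13 values changed sign over the alternatives. With upper quartile scaling the f3h difference was 0.0469 for CHT5 (Os04g0494100), 0.0585 for Os02g0584800 and 0.0470 for Os04g0586000. With library totals it was 0.41, 0.42 and 0.41 for these in f3h, and in WT 0.17 for CIPK16 (Os09g0418000), 0.30 for Os01g0559750 and 0.0089 for Os03g0608700. Os01g0559750 in WT ranged from -0.51 without WT leaf replicate 3 to 0.34 without WT leaf replicate 1. Os07g0221300 in WT stood at -0.16 without WT leaf replicate 2, -0.0021 without WT leaf replicate 3 and -0.09 without WT root replicate 2, against 0.0086 in the fit of all 6 libraries. The other alternatives left the direction of every named gene as it was, with 3 calls lost and 9 gained.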
